A study of Mus musculus with 54 samples.

Results

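The secreted Wnt antagonists described here are Sfrp1, Sfrp2, Sfrp4, Sfrp5, Frzb, Wif1, Dkk2, Dkk3, Dkk4 and Notum. They were chosen by name, 10 of the 20661 autosomal coding genes with a position in mm10. Each gene with 2000 bp on each side was read from a table of counts in windows of 250 bp, and the 10 genes held 1423 of its 10535096 windows. For each gene the 7 windows at the 5′ end, from 1000 bp upstream to 500 bp downstream of the start, were kept apart from the remaining windows, called the body below. The 5′ ends held 70 windows and the bodies 1353.

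Wnt proteins signal by joining a Frizzled receptor to the co-receptors Lrp5 and Lrp6, and the Apc protein restrains the same pathway inside the cell. Secreted antagonists act outside the cell and at different steps. The Sfrp proteins, Frzb and Wif1 bind Wnt proteins themselves. Dkk2 and Dkk4 bind the Lrp co-receptors, Dkk3 is a divergent member of that family, and Notum is an enzyme that removes the lipid that Wnt proteins need for receptor binding. Methylated promoters of SFRP, WIF1 and DKK genes have been described in human colorectal cancer.

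The assay was MeDIP-seq, in which an antibody to 5-methylcytosine pulls methylated fragments out of sheared DNA before sequencing. The tissue was intestine of mice aged 15 to 19 weeks. The 46 libraries fell into 15 groups of strain and tissue. B6 is C57BL/6, PWD is PWD/Ph and B6xPWD is their F1 cross. C5 is a consomic strain that carries PWD chromosome 5 on a C57BL/6 genome, C5F1 is the F1 of C57BL/6 with that strain, and C1_5F1 is the F1 of C57BL/6 with a strain consomic for chromosomes 1 and 5. Adenomas and normal mucosa came from mice with the adenoma-inducing Min allele of Apc (Apc Min), and the third tissue was mucosa of mice wild type for Apc. For B6 there were 5 adenoma, 3 Apc Min normal and 4 wild type libraries. For each of B6xPWD, C5 and C5F1 there were 3 per tissue, for C1_5F1 2 adenoma and 2 Apc Min normal libraries, and for PWD 3 wild type libraries only. The labels name no animals, so p-values measure the spread between these samples only, and tissues of the same mouse, if any, were treated as independent. None of the 10 genes lies on chromosome 1 or 5, so on the labels these genes are C57BL/6 in the consomic groups.

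Total counts per library ran from 8358806 to 27842607, and the 1 input library, from a B6xPWD adenoma, held 7533091. Unless stated otherwise, values are given as CPM, counts scaled to the library total after TMM normalization. The input was scaled to its total alone. CPM reflects how much DNA the antibody pulled down, with no percent methylation behind it, and in PWD a sequence that maps poorly to the C57BL/6 reference cannot be told apart from one that is less methylated. The samples were bulk tissue, so fewer cells carrying a mark and a weaker mark in each cell cannot be told apart. CpG-dense windows are those with a deposited CpG density score of 10 or more, and the share of a library's counts that fell in them ran from 4.03% to 7.74% across MeDIP libraries and was 1.92% in the input. In B6, C5 and C5F1 it moved with the number that opens each sample label: their 7 libraries with number 16 had 4.03% to 5.21%, and the 12 libraries with number 12 had 5.43% to 6.94%. In B6xPWD and PWD it did not, since their libraries with number 16 had 5.30% to 5.94% and those with number 11 had 5.11% to 6.29%. Summed CPM at the 5′ ends of 8 epithelial marker genes had a median of 5.38 in adenomas and 5.63 in Apc Min normal mucosa. The same medians were 6.84 and 7.30 for 8 stromal and muscle genes, 14.1 and 14.0 for 8 immune genes, and 7.99 and 7.08 for 5 endothelial genes. None of these marker genes passed the adenoma test. Within strains the epithelial 5′ ends moved in opposite directions: 0 of 7 tested were above 0 in B6 (median log2 difference −0.44) and 7 of 7 in B6xPWD (median 0.25), none called. The part of the marker genes in the results was not tested. These values are captured DNA and not expression, so they do not check the labelled tissue.

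Promoter sequence shows how the 5′ ends differ in the CpG sites that the antibody can see. RefSeq (GRCm38.p6) gave a promoter of 300 bases, from 250 before to 50 after the start, for 5 of the 10 genes: Sfrp2, Sfrp5, Frzb, Wif1 and Dkk2. Promoters of Sfrp1, Sfrp4, Dkk3, Dkk4 and Notum were not used here. A window search for the letters CG, which read the same on both strands, counted 25 in Wif1, 22 in Sfrp2, 20 in Frzb, 15 in Sfrp5 and 11 in Dkk2. Over 32851 promoters of the same length the median was 7, and 94.6% held at least 1. The share of all promoters with at least as many CG was 18.4% for Wif1, 23.1% for Sfrp2, 26.5% for Frzb, 34.6% for Sfrp5 and 41.4% for Dkk2. Printed here are Sfrp5, whose 5′ end had the highest mean CPM of the 10 and differed between parent strains, Wif1, with the most CG and hardly any capture, and Dkk2, with the fewest. Each runs 5′ to 3′ on the gene's strand, with every CG in capitals. Sfrp5 is chr19:42202203-42202502 on the minus strand, Wif1 is chr10:121033754-121034053 on the plus strand and Dkk2 is chr3:132085042-132085341 on the plus strand.
Sfrp5: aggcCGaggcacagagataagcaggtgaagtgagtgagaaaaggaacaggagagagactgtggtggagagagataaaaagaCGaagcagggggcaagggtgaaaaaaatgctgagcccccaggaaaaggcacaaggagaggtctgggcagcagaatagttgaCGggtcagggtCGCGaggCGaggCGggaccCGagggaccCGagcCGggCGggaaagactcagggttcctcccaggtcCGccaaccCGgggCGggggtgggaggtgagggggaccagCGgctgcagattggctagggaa
Wif1: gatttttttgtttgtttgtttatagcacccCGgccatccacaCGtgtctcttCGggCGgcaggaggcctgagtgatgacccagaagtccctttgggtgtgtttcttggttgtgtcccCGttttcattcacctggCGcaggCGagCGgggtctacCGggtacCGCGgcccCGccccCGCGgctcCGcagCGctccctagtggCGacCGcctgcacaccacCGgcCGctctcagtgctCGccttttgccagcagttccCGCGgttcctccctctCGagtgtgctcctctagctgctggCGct
Dkk2: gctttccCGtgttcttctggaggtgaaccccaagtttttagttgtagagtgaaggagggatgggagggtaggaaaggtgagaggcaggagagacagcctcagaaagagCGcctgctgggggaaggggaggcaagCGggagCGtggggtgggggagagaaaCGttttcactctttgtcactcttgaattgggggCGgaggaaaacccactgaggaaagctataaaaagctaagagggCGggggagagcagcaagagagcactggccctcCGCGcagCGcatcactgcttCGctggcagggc

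The CG of the Sfrp5 promoter are uneven. The first 150 bases hold 2 CG and the last 150 bases, next to the start, hold 13. The window over most of that promoter (chr19:42202251-42202500) averaged 0.377 CPM over the 46 libraries, while the next window downstream (chr19:42202001-42202250), with a CpG density score of 28.8 against 14.8, averaged 0.0436 CPM. The 2 windows over the Wif1 promoter averaged 0.0317 and 0.05 CPM, and those over the Dkk2 promoter 0.109 and 0.115 CPM. The Sfrp2 promoter windows were at 0.00489 and 0.0175 CPM, and the Frzb windows at 0.0439 and 0.0313 CPM. Of these windows, the one over the Sfrp5 promoter, centred 123 bp upstream of the start, was the highest. It was no peak within the gene, since the windows centred 373 and 623 bp upstream had 0.379 and 0.382 CPM.

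The reference tables gave a strand, and so the position of the 5′ end, for Sfrp2, Sfrp5, Frzb, Wif1 and Dkk2. For the other 5 genes the gene end with the higher CpG density stood in for it. Among genes with a strand and at least as large a gap in density between their ends, the start was the CpG-rich end in 99.0% for Sfrp1, 98.1% for Sfrp4, 96.1% for Dkk3 and 99.0% for Notum. For Dkk4 the ends differed by a score under 2, and among such genes the start was the CpG-rich end in 53.4%, so its 5′ end is uncertain. In addition, 9 of the 35 windows of Dkk4 overlap Polb, which encodes a DNA repair polymerase.

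At the 5′ ends the 10 genes spanned a wide range of captured DNA. Sfrp5 (chr19:42197971-42202252) had 1.70 ± 0.478 CPM (mean ± SD, n = 46 libraries), above 92.2% of all autosomal genes. Dkk4 (chr8:22623685-22628018) had 1.27 ± 0.249 CPM and Dkk3 (chr7:112116019-112159482) 1.15 ± 0.352 CPM. The place of Dkk4 rests on the end taken as its start. Group means there ran from 1.03 to 1.65 CPM, and at its other end from 0.0915 to 0.398 CPM. Sfrp4 (chr13:19623175-19632825), Notum (chr11:120653788-120661193) and Sfrp2 (chr3:83765750-83774314) followed with 0.861 ± 0.278, 0.786 ± 0.25 and 0.784 ± 0.260 CPM. Dkk2 (chr3:132085266-132180304) had 0.490 ± 0.143 CPM. Frzb (chr2:80411970-80447396), Wif1 (chr10:121034004-121100642) and Sfrp1 (chr8:23411383-23449632) were lowest with 0.281 ± 0.107, 0.202 ± 0.107 and 0.196 ± 0.111 CPM. Sfrp1 had at most 11 counts in a library at its 5′ end and Wif1 at most 10, each had 2 libraries at 0, and Wif1 did not pass the filter on low counts there. At such counts only a large difference would be detectable. In the 1 input library, at 2 to 14 counts per 5′ end, Sfrp5 had 0.929 CPM and Dkk3 0.797 CPM, below their MeDIP means. Dkk4, Sfrp4, Notum and Sfrp2 had 1.33, 1.86, 1.195 and 1.195 CPM in the input, above theirs. Dkk2, Frzb, Wif1 and Sfrp1, at 1.06, 0.664, 1.33 and 0.27 CPM, were also above theirs. The order given is thus one of captured DNA, and enrichment over input was not tested.

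In this order of 5′ ends, taken per kb of region, 2 neighbouring gaps exceeded the larger SD of the pair. Sfrp2 at 0.448 CPM per kb was above Dkk2 at 0.280 in 39 of 46 libraries, and Dkk2 was above Frzb at 0.160 in 39 of 46. The other neighbours lay within the spread between libraries, so by this measure Sfrp5 and Dkk4, Dkk3 and Sfrp4, or Frzb, Wif1 and Sfrp1 cannot be ordered firmly. Library by library, Sfrp5 was above Dkk4 in 36 of 46 and Dkk3 above Sfrp4 in 34. Frzb was above Wif1 in 32 and Wif1 above Sfrp1 in 21. The plot of 5′ end levels by library shows the values behind these means in each group.

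**Figure D1:**
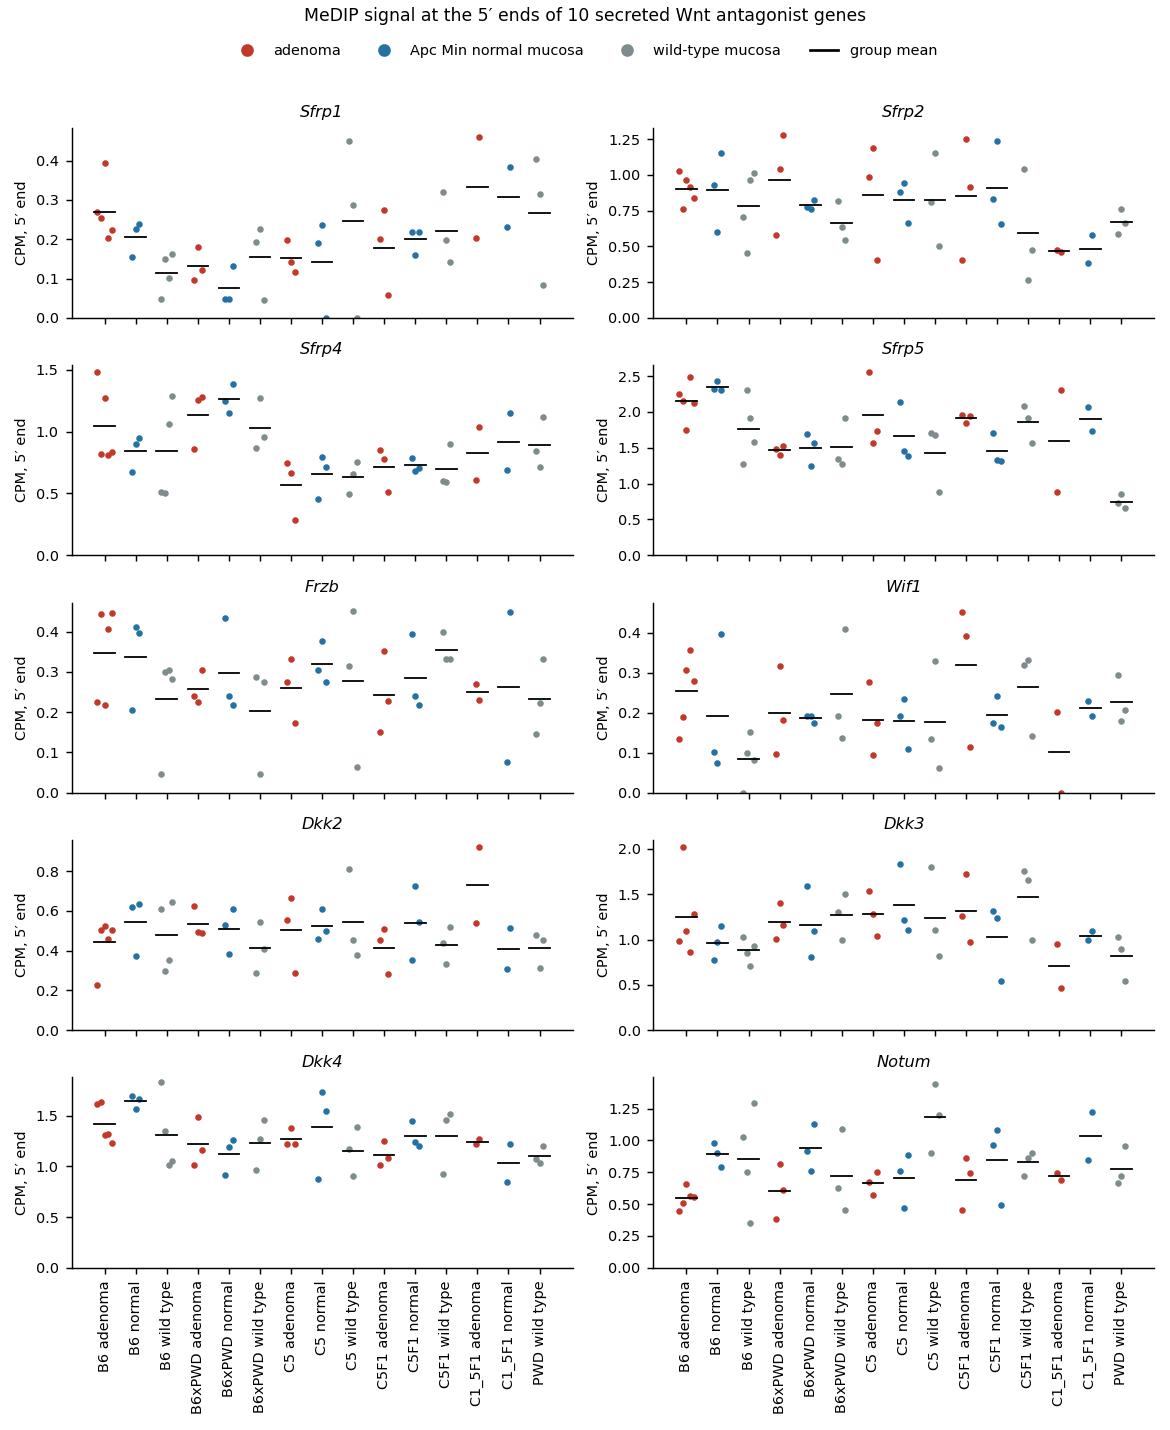
CPM at the 5′ end of each of the 10 genes (vertical axis, linear, scaled per gene) in each of the 46 libraries (points) of the 15 groups (horizontal axis); bars are group means. The Sfrp5 points of PWD, at 0.663 to 0.852 CPM, lie below those of the other groups, and the B6 adenoma points of Notum, at 0.449 to 0.655 CPM, lie below those of B6 Apc Min normal mucosa.

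The bodies gave another order. Per kb, Sfrp2 had the highest body level at 1.23 CPM per kb, followed by Wif1 at 0.964, Sfrp1 at 0.828 and Dkk4 at 0.809. Sfrp4 at 0.323 and Dkk2 at 0.337 were lowest. The ratio of body to 5′ end per kb separated the genes further: it was 8.34 for Wif1, 7.40 for Sfrp1, 3.20 for Frzb and 2.75 for Sfrp2. It was 1.47 for Notum, 1.20 for Dkk2 and 1.11 for Dkk4, and lower still for Dkk3 (0.911), Sfrp4 (0.657) and Sfrp5 (0.427). The Dkk4 ratio rests on the end taken as its start. These ratios were not set against the input, so they are not ratios of enrichment. The input held only 2 counts at the Sfrp1 5′ end and 14 at that of Sfrp4.

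Captured DNA was next set beside CpG density. Values over all autosomal windows were scaled here to the library total without TMM. The scale of the dense windows by gene also differs slightly from that of named windows, with 1 Sfrp4 window at 0.586 and 0.582 CPM. Over all autosomal windows captured DNA rose from 0.0477 CPM per window at scores under 2 to 0.442 at scores of 10 to 20, and was 0.114 at scores of 20 or more. The body windows of the 10 genes had 0.354 CPM at scores of 5 to 10 (246 windows), against 0.333 over all windows, and 0.497 ± 0.0681 at scores of 10 to 20 (25 windows; SD over 46 libraries). Their 9 windows at scores of 20 or more were lower than all windows of that class, with 0.0188 CPM. At the 5′ ends the 19 windows with scores of 10 to 20 held 0.114 ± 0.0298 CPM, and the 15 windows with scores of 20 or more held 0.0229 ± 0.0131 CPM. The input library held 0.161 and 0.150 CPM per window in these same 5′ end windows. Pooled over the genes, the dense windows at the starts were thus covered in the input, which is not given here gene by gene. Their captured DNA differed between genes. It was lowest at Sfrp1 and Notum, with 0.0208 and 0.0222 CPM per window, and higher at Dkk3 (0.241), Sfrp4 (0.234, highest window 0.586) and Sfrp5 (0.143, highest window 0.379). The whole Sfrp1 5′ end held only 2 input counts, or 0.27 CPM (interval 0.032 to 0.959). That interval includes its MeDIP mean of 0.196 CPM, so at Sfrp1 low capture cannot be told apart from low coverage.

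CpG-dense windows were not low everywhere within a gene. Those at the Sfrp2 5′ end averaged 0.0292 CPM (5 windows) and those in its body 0.619 CPM (5 windows), with a highest value of 1.69. Wif1 had 0.0277 CPM at the 5′ end and 0.714 CPM in the body (4 windows), and Notum 0.0222 and 0.303 CPM (7 windows). For Dkk3 the order was the other way, with 0.241 CPM in 2 dense windows at the 5′ end and 0.0379 CPM in 3 dense windows of the body, and also for Sfrp5, with 0.143 and 0.0737 CPM. Dkk2 was nearly level, with 0.0683 and 0.0886 CPM.

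**Figure D2:**
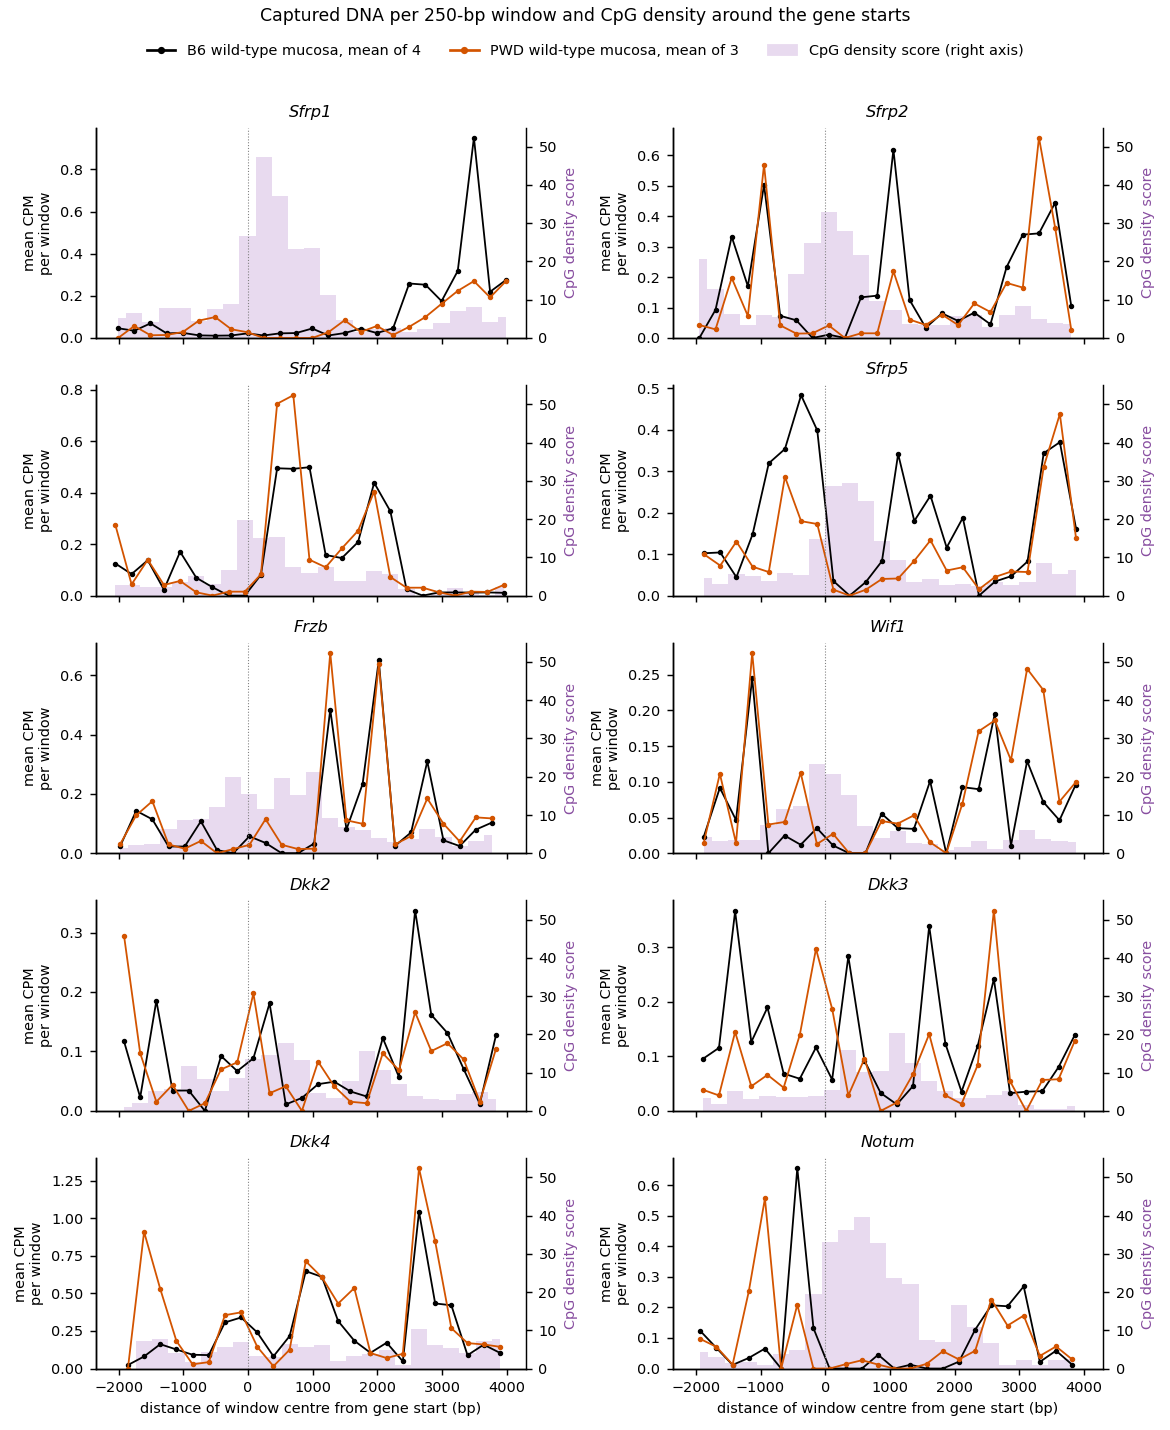
Mean CPM per 250-bp window (left axis, linear, scaled per gene) in B6 (black, 4 libraries) and PWD (orange, 3 libraries) wild type mucosa, and the deposited CpG density score (shaded, right axis), by distance of the window centre from the gene start in bp. Signal was near 0 over the CpG-dense blocks of Sfrp1, Sfrp2, Wif1 and Notum and stood beside them, and at Sfrp5 PWD was lower than B6 on both sides of the start.

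Within each gene the window with the most captured DNA was usually in the body. It was chr3:83773001-83773250 in Sfrp2 with 1.87 CPM, chr10:121047751-121048000 in Wif1 with 1.59 CPM, chr7:112146501-112146750 in Dkk3 with 1.53 CPM and chr8:23416751-23417000 in Sfrp1 with 1.35 CPM, means over 46 libraries. Notum peaked at chr11:120656501-120656750 with 1.19 CPM, Frzb at chr2:80413251-80413500 with 1.13 CPM, Dkk4 at chr8:22625251-22625500 with 1.07 CPM and Dkk2 at chr3:132120251-132120500 with 0.931 CPM. The exceptions were Sfrp4, with 0.582 CPM at chr13:19623501-19623750, and Sfrp5, with 0.382 CPM at chr19:42202751-42203000, which lie in the 5′ ends 450 bp downstream and 623 bp upstream of the start. None of these 10 windows passed the adenoma test.

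Adenomas were compared with Apc Min normal mucosa within each strain, and as the mean of the 5 strains with equal weights, to ask whether captured DNA at these genes differs with tumour formation. No member passed an adjusted p of 0.05 (edgeR quasi-likelihood test, Benjamini-Hochberg over all features), at 9 tested 5′ ends, 10 bodies or 291 tested windows, in the mean or in any strain. Over all features the mean comparison called 0.0528% of 13270 5′ ends, 0.02% of 19997 bodies and 0.00103% of 1166299 windows. DESeq2, run on 5′ ends and bodies only, called no member, and gave no adjusted p for 9 of the 10 bodies in B6. At an unadjusted p under 0.05 the mean comparison held 1 of 9 members' 5′ ends against 4.72% of all, 0 of 10 bodies against 2.79% of all, and 11 of 291 windows (3.78%) against 4.22% of all.

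Within strains, 0.00754% of all 5′ ends were called in B6 and in B6xPWD, and 0 in C5, C5F1 and C1_5F1. For bodies these shares were 0.02% in B6 and 0 in the other 4 strains, and for windows 0.000772% in B6 and 0 in the other 4. The number of member windows with an unadjusted p under 0.05 was 17 in B6, 9 in B6xPWD, 5 in C5, 11 in C5F1 and 15 in C1_5F1, each of 291. The shares of all windows were 4.25%, 3.48%, 2.96%, 3.54% and 3.55%. The test of a difference between strains in the adenoma effect called 0 of all features and no member, with 13 member windows (of 291) at an unadjusted p under 0.05 against 2.62% of all windows.

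The 9 tested 5′ ends had a median log2 difference of 0.01, with 5 above 0 and 4 below, and all 13270 genes had a median of 0.00. Among the Wnt-binding genes, Sfrp1 had a log2 difference of 0.21 ± 0.30 (SE; 95% confidence interval −0.39 to 0.82) and Sfrp2 one of 0.05 ± 0.19 (−0.33 to 0.43). Sfrp4 had −0.05 ± 0.16 (−0.36 to 0.27), Sfrp5 0.01 ± 0.12 (−0.22 to 0.25) and Frzb −0.17 ± 0.25 (−0.67 to 0.33). These intervals leave room for differences of that size in either direction. Among the Dkk genes the log2 differences were 0.03 ± 0.18 for Dkk2 (−0.33 to 0.39), 0.02 ± 0.16 for Dkk3 (−0.29 to 0.34) and −0.03 ± 0.12 for Dkk4 (−0.28 to 0.22). The fitted difference of Frzb was below 0 in 5 of 5 strains, from −0.26 to −0.06, at 1 to 11 counts per library, but in B6 its mean CPM was 0.348 in adenomas and 0.338 in normal mucosa, so the sign there rests on the fit.

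Bodies were measured more precisely and also showed no called difference. Their log2 differences ran from −0.03 to 0.09, with 6 above 0 and 4 below and a median of 0.01. Sfrp1, whose body held 33.7 ± 1.48 CPM (SD, n = 46), had a log2 difference of −0.01 ± 0.02 (95% confidence interval −0.06 to 0.04). Wif1, with 66.5 ± 3.64 CPM, had −0.03 ± 0.03 (−0.10 to 0.03), and Dkk3, with 27.3 ± 1.88 CPM, had 0.04 ± 0.03 (−0.03 to 0.11). Dkk4 had the largest difference, 0.09 ± 0.07 (−0.05 to 0.23). Within strains the Sfrp2 body in B6 (−0.18 ± 0.08) and the Sfrp4 body in C5 (−0.27 ± 0.12) had an unadjusted p under 0.05, as did 2.73% and 1.1% of all bodies in these strains, and did not pass the adjusted threshold.

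**Figure D3:**
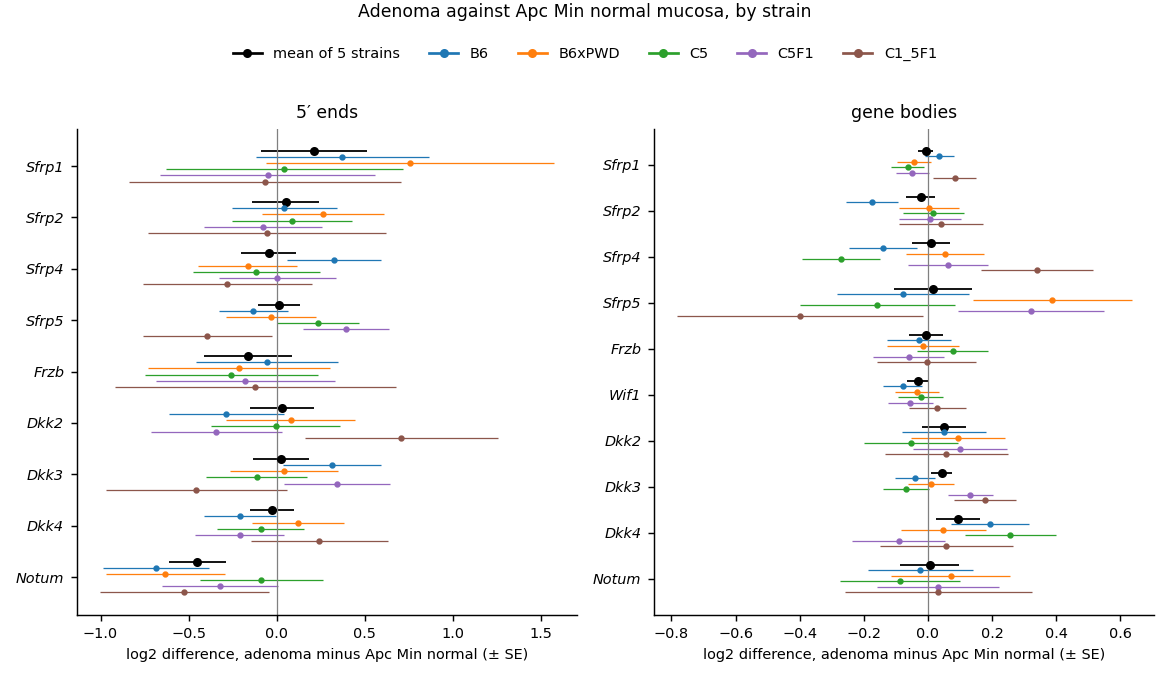
log2 difference of adenoma minus Apc Min normal mucosa (horizontal axis) at the 5′ ends of 9 genes (left) and the bodies of 10 genes (right), with bars of 1 SE, as the mean of 5 strains (black) and in each strain (colours). At the 5′ ends the strains of Notum, from −0.69 to −0.09, and of Frzb, from −0.26 to −0.06, all lie below 0. Those of the other genes lie on both sides of 0.

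Notum, the Wnt-inactivating enzyme, had the lowest p among the members' 5′ ends. In B6 the 5 adenomas held 0.449, 0.506, 0.655, 0.560 and 0.558 CPM and the 3 samples of Apc Min normal mucosa 0.979, 0.899 and 0.793 CPM. These groups did not overlap, but B6 wild type mucosa, at 1.03, 0.750, 0.354 and 1.29 CPM, spanned both. In this strain the tested epithelial marker 5′ ends also lay below 0, 7 of 7, and their part in the Notum difference was not tested. In B6xPWD the adenomas held 0.384, 0.812 and 0.612 CPM and the normal samples 0.917, 0.763 and 1.13 CPM, with overlap. In C5 they held 0.670, 0.570 and 0.753 against 0.763, 0.470 and 0.884 CPM, again overlapping. C5F1 overlapped too, with 0.453, 0.860 and 0.742 against 0.964, 1.08 and 0.492 CPM. In C1_5F1 the adenomas held 0.744 and 0.691 CPM and the normal samples 0.843 and 1.22 CPM, without overlap. The counts behind these values were 6 to 35 per library. Over all genes, the groups did not overlap at 4.39% of 5′ ends in B6 and at 32.8% in C1_5F1.

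Averaged over strains with equal weights, the Notum 5′ end had 0.643 CPM in adenomas and 0.882 CPM in Apc Min normal mucosa, a log2 difference of −0.45 ± 0.16 (95% confidence interval −0.78 to −0.13). The unadjusted p from edgeR was 0.00744 and the adjusted p 0.673. The difference was below 0 in 5 of 5 strains, from −0.69 to −0.09, as it was for Frzb. The share of all genes with 1 sign in all 5 strains is not given here. The test of a difference between strains gave an adjusted p of 1.00 in edgeR. In an exact two-sided permutation test of CPM within each strain, B6 gave p = 0.0357, the smallest of its 56 arrangements, and an adjusted p of 1 over the 50 tests made (10 genes in 5 strains). The exact p was 0.2 in B6xPWD, 0.8 in C5 and 0.5 in C5F1, where 3 against 3 cannot go below 0.1, and 0.333 in C1_5F1, the smallest that 2 against 2 allow. Of the 50 tests, 1 had p under 0.05, and only those in B6 could have. No outcome of these 50 tests could have passed the adjusted threshold, so the adjusted p carries no information. Where adenoma and normal libraries of a strain shared the first number of their labels, Notum was lower in adenoma in 7 of 10 such sets, with a mean difference of −0.222 CPM (−0.533 to 0.25). With any 1 library left out, the log2 difference stayed between −0.51 and −0.40. The opposite end of the gene, an alternative added after the data were seen, gave 0.09.

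The Notum signal came mainly from 1 window, chr11:120661501-120661750, centred 432 bp upstream of the start with a CpG density score of 4.79. There the B6 adenomas held 0.340, 0.262, 0.391, 0.326 and 0.444 CPM and the B6 Apc Min normal samples 0.707, 0.646 and 0.599 CPM, without overlap, with B6 wild type at 0.824, 0.665, 0.348 and 0.788 CPM. Its mean log2 difference was −0.53 ± 0.19 (adjusted p = 1 in edgeR), and 4 of 5 strains were below 0. This was the lowest p of the 291 member windows in the mean comparison. The CpG-dense windows of the Notum start held 0.0222 CPM on average, so a loss there was not detectable at this depth.

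The other windows among the 5 lowest p in each direction of the mean comparison also missed the threshold, with an adjusted p of 1 from edgeR. Of the 11 windows with an unadjusted p under 0.05, 1 in Sfrp2 and 1 in Frzb fell outside these and are not named. The second Dkk4 window named here had an unadjusted p of 0.0598 in edgeR. The differences above 0 were in Dkk2 at chr3:132117251-132117500 (log2 0.56 ± 0.22), in Dkk3 at chr7:112127501-112127750 (0.45 ± 0.18) and chr7:112117251-112117500 (0.37 ± 0.18), and in Dkk4 at chr8:22627751-22628000 (0.64 ± 0.29) and chr8:22626251-22626500 (0.43 ± 0.22). Those below 0 were in Wif1 at chr10:121060001-121060250 (−0.77 ± 0.33), chr10:121075501-121075750 (−0.51 ± 0.22) and chr10:121036501-121036750 (−0.63 ± 0.27), and in Dkk3 at chr7:112134751-112135000. Of these 9 windows, 8 lie in bodies. In 2 of them the mean rests on C1_5F1, with 2 libraries per tissue and 1 of the 4 at 0: the first Wif1 window had −2.78 there but 0.05 in B6xPWD and 0.19 in C5, and the first Dkk4 window had 3.02 there but −0.52 in B6. In the Dkk3 window below 0 the B6xPWD adenomas had 0, 0.0443 and 0 CPM and their normal samples 0.378, 0.138 and 0.214 CPM (adjusted p = 1 in edgeR), and the 3 PWD wild type libraries had 0 counts.

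Counting only overlap, adenoma and normal libraries were apart in 5 of 45 pairs of a member's 5′ end and a strain, against 12.4% of such pairs over all genes. They were Sfrp5 in C5F1 and Dkk2 in C1_5F1, higher in adenoma, and Dkk3 in C1_5F1 and Notum in B6 and C1_5F1, lower. For bodies it was 5 of 50 against 10.3% of all: Sfrp1 in C5 (lower), Sfrp1 in C1_5F1, Sfrp5 in B6xPWD, Dkk3 in C1_5F1 and Dkk4 in C5 (higher). These shares are near those of all genes. At Sfrp5 in C5F1 the adenomas held 1.96, 1.84 and 1.94 CPM and the normal samples 1.71, 1.33 and 1.31 CPM, while in B6 the adenomas, at 1.75 to 2.49 CPM, overlapped the normal samples at 2.30 to 2.43 CPM.

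**Figure D4:**
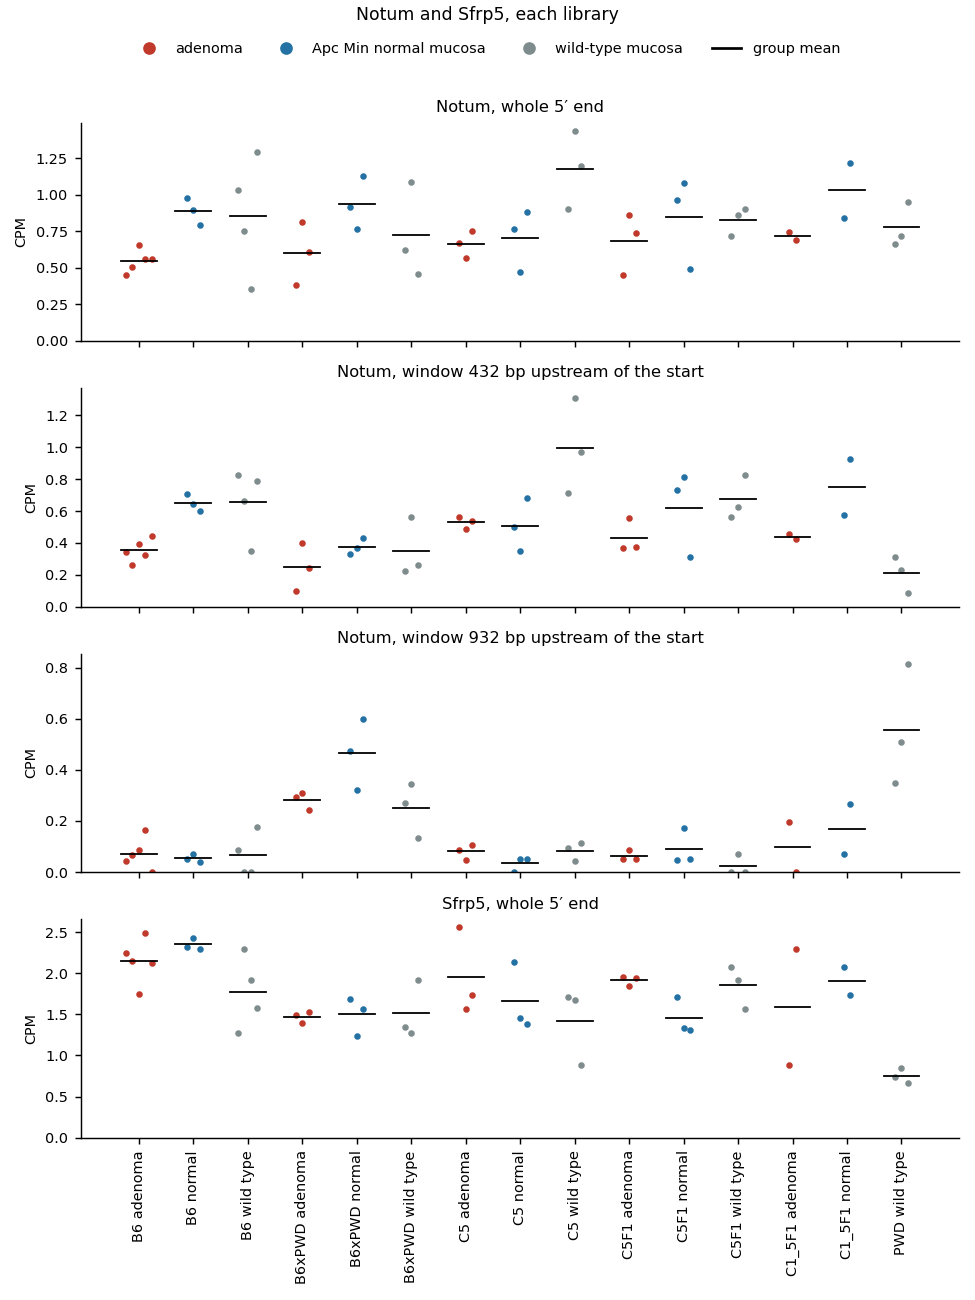
CPM (linear vertical axes from 0) of each library (points) and group means (bars) in the 15 groups for the whole Notum 5′ end, its windows 432 bp and 932 bp upstream of the start, and the whole Sfrp5 5′ end. Notum in B6 adenomas (0.449 to 0.655 CPM) was below B6 Apc Min normal mucosa (0.793 to 0.979 CPM), the window 932 bp upstream was highest in PWD, and Sfrp5 was lowest in PWD.

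Apc Min normal mucosa was compared with wild type mucosa in the 4 strains that had both. No member was called, and 0 of all 5′ ends, bodies and windows were called by edgeR or, for 5′ ends, by DESeq2. Members' 5′ ends had a median log2 difference of 0.09, with 6 above 0 and 3 below, and none had an unadjusted p under 0.05 against 2.8% of all. Bodies lay between −0.05 and 0.03, with 2 above 0 and 8 below. Of the 291 windows, 12 had an unadjusted p under 0.05 (4.12%), against 2.87% of all windows. For Notum the log2 difference at the 5′ end was −0.07 ± 0.16 (95% confidence interval −0.38 to 0.24).

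The parent strains differed more. In wild type mucosa, PWD against B6, 12.3% of all 5′ ends, 8.92% of bodies and 20.8% of windows passed the threshold in edgeR. Of the members, 1 of 9 5′ ends (Sfrp5, lower in PWD), 2 of 10 bodies (Dkk4, higher, and Sfrp2, lower) and 68 of 291 windows (23.4%) passed. Over all genes, 5.89% of 5′ ends were called higher in PWD and 6.43% lower, and for bodies 3.01% and 5.92%, so these counts are close to the background. The median log2 difference was −0.18 at the members' 5′ ends and −0.11 in their bodies, against −0.01 and 0.01 over all genes.

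At Sfrp5, a Wnt-binding antagonist, the PWD libraries held 0.736, 0.852 and 0.663 CPM at the 5′ end and the B6 wild type libraries 1.27, 2.30, 1.92 and 1.58 CPM. The groups did not overlap. The log2 difference was −1.22 ± 0.26 (95% confidence interval −1.74 to −0.71), a level 0.428 times that of B6, with an adjusted p of 0.000326 in edgeR. It passed with each of the 7 PWD and B6 libraries left out, from −1.34 to −1.06, with a factor for the first label number (−1.60 ± 0.35, adjusted p = 0.00109) and in DESeq2 (−1.21 ± 0.29, adjusted p = 0.00101). The 9 B6xPWD libraries ran from 1.24 to 1.92 CPM with a median of 1.49, above all 3 PWD libraries and overlapping B6 wild type. The 8 B6 libraries from Apc Min mice ran from 1.75 to 2.49 CPM, and among the libraries of consomic groups the lowest were 0.880 CPM in C1_5F1 and 0.882 CPM in C5.

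Windows with a lower Sfrp5 level in PWD lay on both sides of the start. In the window over that promoter, with most of the 13 CG next to the start, PWD held 0.155, 0.277 and 0.0856 CPM and B6 0.217, 0.617, 0.497 and 0.263 CPM, which overlapped (log2 −1.18 ± 0.54, adjusted p = 0.122 in edgeR). Centred 373 bp upstream, chr19:42202501-42202750 had 0.272, 0.139 and 0.128 CPM in PWD and 0.130, 0.807, 0.646 and 0.350 CPM in B6 (log2 −1.34 ± 0.47, adjusted p = 0.0328). Centred 873 bp upstream, chr19:42203001-42203250 had 0.0388, 0.0462 and 0.0856 CPM in PWD and 0.260, 0.380, 0.199 and 0.438 CPM in B6. That window passed without overlap (adjusted p = 0.00352 in edgeR), at few counts in each PWD library. Between these, the most captured window of the gene, centred 623 bp upstream, was not called (log2 −0.32 ± 0.38, adjusted p = 0.633). In the body, chr19:42201001-42201250, centred 1127 bp downstream, was lower in PWD, with means of 0.0413 and 0.342 CPM in PWD and B6 (adjusted p = 0.00282 in edgeR), and a flank window beyond the other gene end, chr19:42195751-42196000, was higher, with 0.510 and 0.0868 CPM (adjusted p = 0.000534).

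Notum held PWD differences of opposite sign at its 5′ end. In the window 432 bp upstream PWD had 0.311, 0.231 and 0.0856 CPM, below B6 wild type (log2 −1.62 ± 0.40, adjusted p = 0.00130 in edgeR). In chr11:120662001-120662250, centred 932 bp upstream and chosen after its values were seen, PWD had 0.349, 0.508 and 0.813 CPM, B6 wild type 0.0867, 0, 0 and 0.175 CPM, and B6xPWD wild type 0.269, 0.346 and 0.132 CPM. This window was higher in PWD without overlap (adjusted p = 2.61e-05). The filter on low counts asks for the minimum in only 2 libraries, and the highest values given here are those of PWD. The window may thus have been tested only because PWD was high, and its p-value is not free of that choice. Summed over the whole 5′ end, Notum had a log2 difference of −0.18 ± 0.29 and was not called. Another 5′ end window that passed was in Dkk3 at chr7:112159001-112159250, with means of 0.0284 CPM in PWD and 0.283 CPM in B6 (adjusted p = 0.00217). In all, 5 of 14 tested windows at 5′ ends passed, 1 higher and 4 lower in PWD, against 8.08% of all windows higher and 12.8% lower.

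Dkk4, an Lrp-binding antagonist, had the body call with the larger difference. PWD held 7.31, 6.36 and 7.39 CPM and B6 wild type 5.83, 4.6, 5.44 and 4.78 CPM, without overlap (log2 0.45 ± 0.12, adjusted p = 0.0140 in edgeR). It was not called when PWD 11_1 or 16_9, or B6 wild type 16_8 or 4_5, was left out (adjusted p 0.0509 to 0.0754). Part of this difference lies in the flank shared with Polb: at chr8:22629501-22629750, 1607 bp outside the taken start, PWD had 1.05, 0.739 and 0.942 CPM and B6 wild type 0.0867, 0.0475, 0.0994 and 0.0875 CPM. The 9 B6xPWD libraries ran from 5.47 to 6.95 CPM over the whole body, overlapping both parents.

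The Sfrp2 body held 12.2, 13.4 and 11.6 CPM in PWD and 18.1, 11.9, 15.3 and 14.5 CPM in B6 wild type, with overlap. The log2 difference was −0.28 ± 0.09 (adjusted p = 0.0362 in edgeR). It did not hold when that factor was fitted, where it was 0.01 ± 0.12, nor without PWD 11_1 or 16_9, or B6 wild type 10_1 or 4_4. Without B6 wild type 10_1, the 18.1 CPM library, it was −0.17 (adjusted p = 0.248). The Wif1 body also had groups that did not overlap, but its log2 difference of −0.12 ± 0.06 was not called (adjusted p = 0.290). Groups of wild type PWD and B6 did not overlap at 20.3% of all 5′ ends and 17.2% of all bodies, against 1 of 9 and 2 of 10 members.

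Single windows showed larger differences, with 21 of the 68 called windows higher in PWD and 47 lower. Over all windows 8.08% were called higher and 12.8% lower. Wif1, with the most tested windows, held 23 of the 68 (5 higher, 18 lower), Sfrp1 12, Dkk3 9, Dkk2 5, and Sfrp2, Sfrp5 and Frzb 4 each. Dkk4 and Notum held 3 each and Sfrp4 1. All 3 in Dkk4 were higher in PWD.

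The 3 lowest p in each direction show the size of these differences. At the Dkk4 flank window named above the log2 difference was 3.42 ± 0.44 (adjusted p = 7.44e-09 in edgeR), with B6xPWD wild type at 0.404, 0.346 and 0.705 CPM. In Frzb at chr2:80439251-80439500, PWD had 0.777, 0.555 and 0.685 CPM, B6 0.0867, 0.0475, 0.149 and 0.0438 CPM and B6xPWD 0.224, 0.432 and 0.220 CPM (adjusted p = 3.73e-06). This Frzb window may have passed the filter on low counts only through PWD, where it was highest. In Wif1 at chr10:121073251-121073500, PWD had 1.48, 1.48 and 1.41 CPM, B6 0.564, 0.522, 0.348 and 0.306 CPM and B6xPWD 1.12, 1.12 and 1.06 CPM (log2 1.73 ± 0.30, adjusted p = 7.29e-06). All 3 windows had B6xPWD between the parents.

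Lower in PWD were Dkk3 at chr7:112133001-112133250, with 0.155, 0.0462 and 0.0428 CPM in PWD, 1.34, 0.855, 1.14 and 1.09 CPM in B6 and 0.538, 0.519 and 0.440 CPM in B6xPWD (adjusted p = 2.84e-09 in edgeR). In Frzb at chr2:80419251-80419500, PWD had 0.388, 0.324 and 0.300 CPM, B6 1.47, 1.28, 1.59 and 1.27 CPM and B6xPWD 1.08, 0.778 and 0.705 CPM (log2 −2.03 ± 0.30, adjusted p = 2.48e-07). In Wif1 at chr10:121088501-121088750, PWD had 0, 0.0462 and 0 CPM, B6 0.607, 0.522, 0.646 and 0.394 CPM and B6xPWD 0.538, 0.303 and 0.529 CPM (adjusted p = 9.24e-08). These values are wild type mucosa in every case, and in the mean adenoma comparison none of these 6 windows was called. At the Frzb window chr2:80439251-80439500 the strains ran from −3.63 in C1_5F1 to 3.54 in C5. Their mean of 0.38 had an unadjusted p of 0.9997 in edgeR, and no usable SE could be calculated from that test. The mean comparison thus says little about this window. The Wif1 gene thus held called windows of both directions within 1 body.

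**Figure D5:**
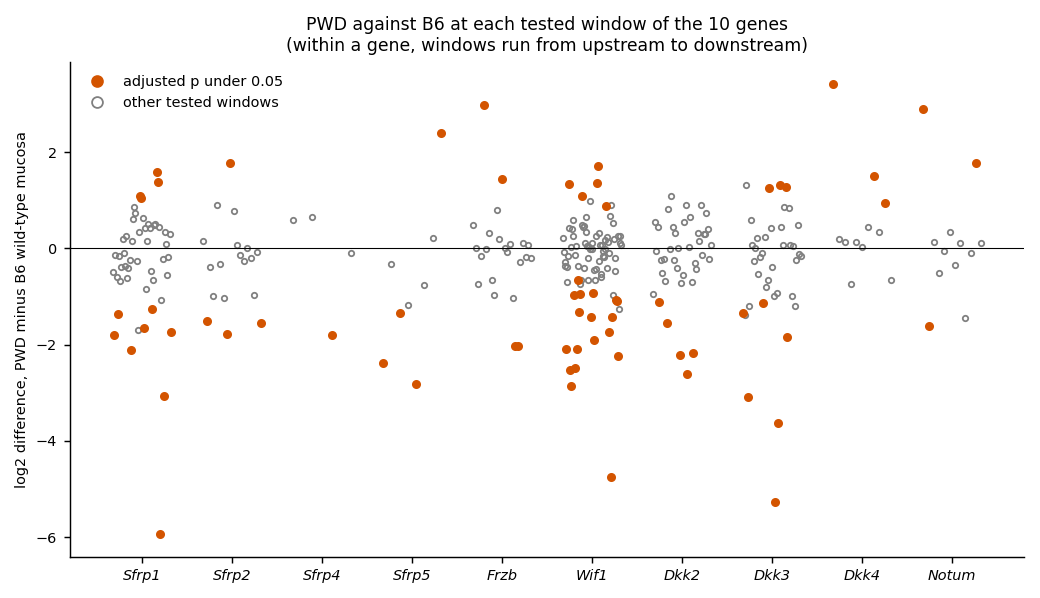
log2 difference of PWD minus B6 wild type mucosa (vertical axis) at each of the 291 tested windows, by gene and, within a gene, from upstream to downstream; filled points are the 68 windows with an adjusted p under 0.05 in edgeR. Called windows lie on both sides of 0, 21 above and 47 below; the 3 lowest points rest on PWD libraries with 0 or nearly 0 counts and their size is not a bound.

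At the 68 windows, each group was placed on a scale where B6 wild type is 0 and PWD wild type is 1. The 3 B6xPWD groups, which the choice of windows did not use as a contrast, had medians of 0.502 in wild type mucosa, 0.502 in Apc Min normal mucosa and 0.481 in adenoma. The B6xPWD wild type mean lay between the parents in 66 of 68 windows. The windows were chosen for distant PWD and B6 wild type values, so other groups tend to fall between these. B6 Apc Min normal mucosa did so in 50 of 68 windows and B6 adenoma in 40, with medians of 0.107 and 0.0482. The consomic groups, in which these chromosomes are C57BL/6 on the labels, had medians from 0.0736 to 0.227 and lay between the parents in 34 to 49 windows. At the 47 windows lower in PWD the mean level was 0.641 CPM in B6 wild type, 0.419 in B6xPWD wild type and 0.201 in PWD, and at the 21 higher ones 0.247, 0.453 and 0.704 CPM.

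Part of the spread between libraries moved with the CpG-dense share of the library. Across the 46 libraries the Frzb body had a Pearson's r of −0.786 with that share, Dkk2 −0.665, Wif1 −0.648 and Notum 0.649, as a description of libraries that share label numbers. The Dkk2 body had a mean of 40.1 CPM in the 7 libraries of B6, C5 and C5F1 with number 16 and 29.9 CPM in the 12 with number 12. The Notum body had 4.97 and 7.40 CPM in the same libraries, and Frzb 22.2 and 18.6 CPM.

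The other genes of the pathway were read from lists of names. At 5′ ends in the mean adenoma comparison, 0 of 13 tested of 17 other extracellular or membrane Wnt inhibitors, 0 of 12 of 18 Wnt ligands, 0 of 13 of 22 receptors and enhancers, and 0 of 10 of 14 Wnt targets passed in edgeR. In bodies none of these genes passed either. List medians of the log2 difference at 5′ ends were −0.05, −0.06, 0.01 and 0.05, against 0.00 over all genes. The lowest p was that of Dkkl1, a relative of Dkk3, with −0.31 ± 0.10 (adjusted p = 0.560 in edgeR). Wnt3, a ligand made by Paneth cells, had 0.52 ± 0.31, and Axin2, a target that feeds back on the pathway, 0.18 ± 0.22, neither called. Between PWD and B6, 1 of 13 receptor 5′ ends passed, against 12.3% of all 5′ ends, and none of the other 3 lists: Lrp5, the co-receptor that Dkk proteins bind, with a log2 difference of −1.45 ± 0.47 (adjusted p = 0.0294 in edgeR). In bodies 1 of 18 ligands and 1 of 13 targets passed as higher in PWD, 1 of 22 receptors as lower and 0 of 17 inhibitors, against 8.92% of all bodies.

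For each member with a tested 5′ end, the gene with the most similar 5′ end level across the 15 group means was found by Pearson's r of log2 CPM. The highest values were 0.928 for Iltifb with Sfrp5, 0.924 for Tmem65 with Dkk3 and 0.900 for Aplp2 with Sfrp4. They were 0.871 for Col5a3 with Dkk2, 0.868 for St13 with Sfrp1, 0.867 for 1700012A03Rik with Sfrp2, 0.831 for Otud7b with Notum, 0.813 for Il12b with Frzb and 0.807 for Olfr974 with Dkk4. Each is the highest of all genes over 15 points, and no member was the most like another member.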

How the data were processed

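The authors deposited whole-number counts per 250-bp window for 46 MeDIP libraries and 1 input library, per the file headers, with a deposited CpG density score per window. The submitters' processing notes name BWA and mm10; versions and settings were not given in the sources used here. Counts were summed over 5′ ends and bodies and tested as deposited with edgeR 4.0.16 in R 4.3.3: filterByExpr with a minimum count of 10, TMM scaling, 1 quasi-likelihood fit of 15 groups, Benjamini-Hochberg over all autosomal features and a threshold of 0.05. A window needed the minimum count, scaled for depth, in only 2 libraries, so it can enter the test through the group where it is high. DESeq2 1.42.0 was an alternative, exact permutation tests used SciPy 1.17.1 in Python 3.11.15, and the fits were tested on simulated data. Intervals are at 95%.

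The members and lists were chosen with earlier results of these data known. Named windows are the 5 lowest p per direction for adenoma, the 3 lowest per direction for PWD and the highest level per gene; genes of a list are those with its lowest p, at most 4. Other windows at the Notum and Sfrp5 starts were chosen after their values were seen. Sex chromosomes were not tested, as no label records sex. For B6xPWD 11_6 the label of the MeDIP library, Apc Min normal, was followed, although the input label says wild type. The C5F1 wild type sample 12_10 and 6 input samples were not used here. Alternatives were other scaling, filter, region, covariates and leaving out each library.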

Additional observations from a re-analysis of the deposited data

Results flagged for a closer look

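The 5′ ends and bodies of the 10 members in the B6 adenomas and B6 wild type mucosa, the only groups with at least 4 libraries, gave 40 sets of values. In 4 of them 1 library stood far from the others, where chance gives about 1 in 20. In B6 wild type mucosa, library 16_8 had 3.74 CPM in the Sfrp4 body against 4.19 to 4.28 in the other 3, and 4.89 CPM in the Notum body against 6.49 to 6.63. Its share of counts in CpG-dense windows was 4.21%, the third lowest of the 46 MeDIP libraries. In the same group, library 10_1 had 0.0469 CPM at the Frzb 5′ end against 0.283 to 0.304, and its CpG-dense share was 7.17%. In B6 adenomas, library 10_2 had 0.225 CPM at the Dkk2 5′ end against 0.458 to 0.524, with a CpG-dense share of 7.22%. Across the 46 libraries the Frzb 5′ end held 1 to 11 counts and the Dkk2 5′ end 4 to 18, so a few counts move these values. The part of that share in these values was not tested.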

How the results depend on the processing

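In every alternative run, leaving out single libraries included, no member passed in any adenoma or Apc Min comparison. For PWD against B6, 1 member's 5′ end passed, and 3 did with 2000 bp either side of the start (Sfrp2 at −0.78 and Dkk3 at −0.70 added) and 2 with the CpG-dense share as a covariate (Sfrp1 added, 1.62). Of bodies 2 passed, with 4 under the CpG-dense covariate (Wif1 at −0.17 and Dkk2 at −0.22 added), 1 with library totals in place of TMM, and 0 to 2 without 1 library. Fitted with a factor for the first label number, the Sfrp2 body was at 0.0146 (SE 0.117, edgeR adjusted p = 0.940), turning its sign, and Wif1 (−0.27) and Dkk2 (−0.30) passed. Of windows 68 passed, 33 with that factor, 11 of the 35 that pass a minimum count of 30, and 46 to 62 without 1 library, an alternative chosen after seeing the data, as was the other gene end. For Notum the B6 difference of −0.345 CPM ran from −0.394 to −0.300 without 1 library, with an exact permutation p of 0.0571 to 0.0952, the smallest possible there. The C5 difference of −0.0413 CPM ran from −0.159 to 0.0478 without 1 library and was 0.0056 without adenoma 12_5 and 0.0478 without normal 16_2. The cause of these changes was not tested.

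Counts over all features moved more. Values with the CpG-dense covariate and then the label-number factor come first here. In the mean adenoma comparison 7 5′ ends became 18 and 14 (0 to 11 without 1 library), 4 bodies 134 and 28 (18 in DESeq2, 2 with library totals, 1 to 23 without 1 library), and 12 windows 142 and 132 (0 to 49 without 1 library). In B6, 1 5′ end became 37 and 12 (7 with 2000 bp either side, 0 in DESeq2 and with library totals, 0 to 5 without 1 library), 4 bodies 325 and 23 (20 in DESeq2, 1 with library totals, 0 to 5 without 1 library), and 9 windows 119 and 64. In B6xPWD, 1 5′ end became 19 and 16 (3 without a filter, 0 in DESeq2, with library totals or with 2000 bp either side, 0 to 27 without 1 library). Between strains, 0 5′ ends became 5 and 2. For PWD, 1635 5′ ends became 2488 and 887 (1065 in DESeq2), 1784 bodies 7943 and 4302, and 242890 windows were 127259 with the factor and 27432 of 125744 at a minimum count of 30. The other comparisons that called 0 features called at most 12 under these alternatives. No paired analysis was possible because no label marks libraries of the same animal across groups. Depth limited the 5′ ends of Sfrp1, Wif1 and Frzb, at no more than 11 counts per library.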
